A study of Mus musculus with 12 samples.

Results

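Medium from interferon-treated macrophages (M1) and medium from macrophages kept in tumour-conditioned medium (TAM) moved many genes of B16F10 mouse melanoma cells to a similar extent. Of 14968 genes tested, 1171 were higher and 1144 were lower in both media by a similar size, and 1846 moved in opposite directions. Genes were chosen from a contrast of the mean of M1 and TAM with the mean of M0 (untreated macrophages) and M2 (interleukin-4-treated macrophages). Shared genes had to pass an adjusted p of 0.05 in that contrast, in M1 against the controls and in TAM against the controls, with the same sign and with the smaller log2 change at least 0.5 of the larger. Opposite genes passed in M1 and in TAM with different signs. These classes rest on 11 of the 12 libraries of the study.

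Each library came from B16F10 cells, a line derived from a C57BL/6 melanoma and labelled wild type, after 24 h in medium taken from bone-marrow-derived macrophages. Before giving their medium, the macrophages had spent 24 h in plain culture medium (M0), with 20 ng/ml of a cytokine spelt INF-γ and read here as interferon gamma (M1), with 20 ng/ml of IL-4 (M2), or in 75% B16F10 conditioned medium (TAM, after the study's term for tumour-associated macrophages). Every group, the controls included, therefore received macrophage medium, and no library came from melanoma cells without it. Whether interferon gamma, IL-4 or melanoma products remained in the transferred medium is not stated, so their direct action and that of macrophage products cannot be told apart. The labels number 3 libraries per group but do not say whether each is a culture of its own, so a p-value here speaks of differences among libraries that may be technical repeats.

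M0 replicate 1 stood apart and was left out. Genes for ribosomal proteins made up 7.11% of its counts and 3.21% to 3.75% in the other 11 libraries, and its count-weighted exon length was 4545 bp against 5819 to 6091 bp. Library totals ran from 15916756 to 20863973 counts. Marker sums that follow include M0 replicate 1. Of the 9 melanoma identity genes all were tested, and their summed level was 20280 to 20610 CPM in M0, 18820 to 19190 in M2, 13830 to 14320 in M1 and 14470 to 15310 in TAM, where CPM stands for a gene's counts divided by its library's total and scaled to a common size. Macrophage markers were near the detection limit. Of 25 listed, 7 were abundant enough to test, Ptprc, Adgre1, Itgam, Tyrobp, C1qa, C1qb and C1qc had 0 counts, and the 25 together summed to 8.72 to 9.62 CPM in M0, 9.97 to 10.6 in M2, 11.6 to 12.6 in M1 and 4.98 to 6.38 in TAM. These sums moved in opposite directions in M1 and TAM, as did Cd68. Mean CPM of Ctss, without M0 replicate 1 as for the single genes that follow, was 1.47 in M1 and at most 0.0185 in the other groups. That of Nos2 was 1.43 in M1 and at most 0.0334 in the others. Mertk had 3.09 in M0, 3.79 in M2, 2.27 in M1 and 1.02 in TAM, and Lyz2 and Coro1a lay at 0.663 to 1.58 in all groups. The part of these markers in the results was not tested. Fcer1g was the shared lower marker of the 7, at 0.549 to 0.956 CPM in the controls and 0.160 to 0.476 in M1 and TAM (adjusted p = 0.0483 and 0.0386), and its call was lost in several other fits. Of 22 lymphocyte, neutrophil and stromal markers 3 were tested and 1, Pdgfra, was shared lower, from at most 2.38 CPM. In such bulk RNA, fewer cells of a kind and less RNA per cell cannot be told apart.

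Interferon gamma acts through its cell-surface receptor and switches on antigen presentation and antiviral genes. Macrophage products such as tumour necrosis factor and interleukin-1 act through NF-kB, and cytokines of the interleukin-6 family act through STAT3. In melanoma, inflammatory cytokines are known to lower MITF-dependent pigment genes and to favour a dedifferentiated state marked by NGFR and AXL. Protein shortage and other stresses act through ATF4, which induces its own set of genes, ATF3 among them.

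The control media differed little from each other. In M2 against M0, 51 genes were called (0.341% of those tested), 31 higher and 20 lower. Of the shared genes, 4 of the 1171 higher and 10 of the 1144 lower were among the genes called between the control groups. They include Rgs16, Lgals3 and Bcl6, higher in M2 than in M0, and Mgll and Trpm1, lower in M2 than in M0. The contrast of M1 and TAM with both controls called 5091 genes higher (34.0%) and 4859 lower (32.5%), or 66.5% in all. Against the same controls M1 alone raised 4114 genes (27.5%) and lowered 3836 (25.6%), or 3394 and 4875 with upper-quartile scaling, and 53.1% of genes were called in either direction. TAM raised 5367 (35.9%) and lowered 5414 (36.2%), 72.0% in all. TAM lay above M1 in 4843 genes (32.4%) and below it in 5646 (37.7%), together 70.1%.

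Similar size was the exception among genes called in the averaged contrast. Of the 9950 called, 4554 (45.8%) passed in M1 and in TAM with the same sign. These comprised the 2315 shared genes, 1872 whose log2 change in TAM was more than 2 times that in M1, and 367 in which M1 had the larger change by that measure. Another 973 called genes (9.8%) moved in opposite directions, so their average mainly reflected the larger response. A further 3356 (33.7%) passed in TAM but not in M1, 1010 (10.2%) in M1 but not in TAM, and 57 in neither. Passing in 1 medium only does not show that the media differed.

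The shared higher class held 7.82% of all genes tested and the shared lower class 7.64%. With upper-quartile scaling in place of TMM they held 979 and 1450 genes, of which 886 and 1019 were the same genes. Median log2 changes were 0.54 in M1 and 0.61 in TAM for shared higher genes and −0.41 and −0.51 for shared lower genes, against 0.01 and 0.01 over all genes tested. These medians describe how the classes were chosen. With M0 replicate 1 put back, the shared classes held 543 and 705 genes and the opposite classes 313 and 194. At least 2-fold in both media were 276 shared higher (1.84%) and 165 shared lower genes (1.10%). Of the 276, 6 had 0 counts in the controls and could only rise. Within the shared classes, which were chosen for similar size, TAM against M1 was called for 532 of the 1171 and 482 of the 1144, and for 70.1% of all genes tested.

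The opposite classes held 1011 genes higher in M1 and lower in TAM (6.75%) and 835 genes lower in M1 and higher in TAM (5.58%). Upper-quartile scaling gave 746 and 1263. At least 2-fold in each direction were 65 (0.434%) and 26 genes (0.174%), so most opposite changes were small. Their median log2 changes were 0.38 in M1 with −0.49 in TAM, and −0.23 in M1 with 0.39 in TAM.

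**Figure D1:**
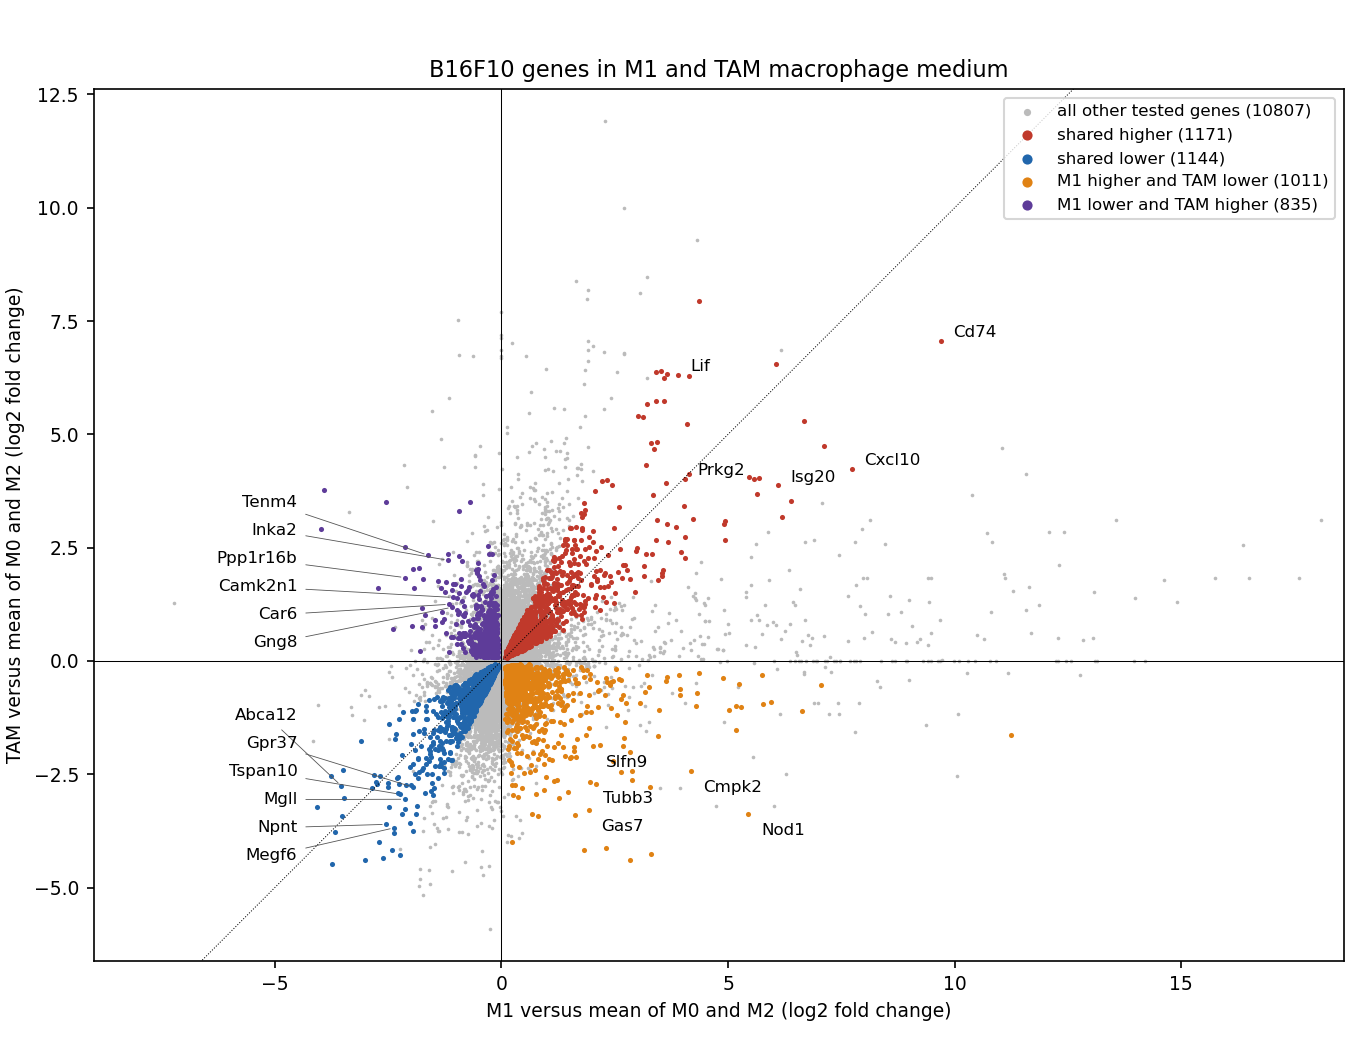
Log2 fold change of each of the 14968 tested genes in M1 medium (horizontal axis) and in TAM medium (vertical axis), both against the mean of M0 and M2, coloured by class, with the dotted line marking equal change. Shared genes lie along that line by construction, and the gene labels mark the largest smaller changes, from Cd74 at 9.69 and 7.07 to Nod1 at 5.45 and −3.38.

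M1 and TAM are measured against the same 5 control libraries here, which by itself can push both changes the same way. They were therefore also set against separate controls, M1 against M0 and TAM against M2, with no library in common. Of the 14968 genes tested, that pairing called 3630 higher in M1 and 5121 in TAM. In both were 1794 (49.4% of the M1 genes and 35% of the TAM genes). The pairing called 3426 lower in M1 and 5286 in TAM, with 2111 in both (61.6% and 39.9%). With pooled controls 35.9% of all genes tested rose and 36.2% fell in TAM, so part of each overlap needs no shared response. By the same size rule 1031 were shared higher and 1070 shared lower, and these held 896 (76.5%) and 921 (80.5%) of the genes found with pooled controls. Of the opposite genes 840 (83.1%) and 686 (82.2%) were found again. With the controls exchanged, 881 and 920 of the shared genes were found again.

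M0 replicate 1, although left out, can be read for the large shared changes. In it 242 of the 276 genes shared higher by at least 2-fold lay below all 6 M1 and TAM libraries, and 136 of the 165 shared lower genes lay above them. The CPM of M0 replicate 1 were without TMM scaling, and those of the M1 and TAM libraries carried it. The same count was not made over all genes tested, so these values describe the chosen genes only.

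The size rule separates neighbours that hardly differ. Casp4, with a log2 change of 6.19 in M1 and 3.17 in TAM, and Rab3il1, at −1.10 and −2.18, fell just inside it with ratios of 0.512 and 0.505. Just outside were Ckb (−1.09 and −2.19, ratio 0.498) and Prx (1.21 and 2.44, ratio 0.495).

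Chemokine genes were among the largest shared rises. Cxcl10, which draws activated T cells through the receptor CXCR3 (mm10 chromosome 5, 92346638 to 92348889, minus strand), stood at 9.59 and 11.4 CPM in M0, at 8.99, 8.38 and 10.4 in M2, at 2060, 2125 and 2098 in M1 and at 181, 192 and 190 in TAM. No treated library overlapped a control, and M1 lay above TAM. Such a lack of overlap was a condition for most named genes and was met by 37.2% of all genes tested. The log2 change was 7.73 ± 0.05 (SE, adjusted p = 9.13e-66) in M1 and 4.25 ± 0.05 (adjusted p = 1.29e-52) in TAM. Ccl5, a chemokine for T cells and monocytes, was 0.940 to 1.77 CPM in the controls, 114, 113 and 110 in M1 and 15.7, 14.4 and 16.5 in TAM. Its rise of 6.38 ± 0.09 in M1 exceeded that of 3.52 ± 0.12 in TAM (adjusted p of the difference = 1.09e-37). Cxcl1, a neutrophil chemokine, went from 0.0550 to 0.206 CPM in the controls to 7.38, 7.92 and 6.83 in M1 and 1.66, 2.78 and 2.60 in TAM. Its relative Cxcl2 had 0 counts in all 5 control libraries, 24 in M1 and 36 in TAM. Against a floor of 3 counts over the controls this is at least 13.3-fold higher in M1 and at least 19-fold higher in TAM. Cxcl1 and Cxcl2 are close relatives, and reads they share could have been divided between them.

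The start regions of these chemokine genes are shown because they rose together and hold short sequences that NF-kB and interferon-regulated factors are known to bind. They are RefSeq windows of 300 bases on GRCm38.p6, from 250 before the start site to 50 from it on, written on the gene's own strand. Capitals mark matches on either strand to 3 motifs chosen as search patterns: the kB site of NF-kB, the core of the interferon-stimulated response element and the AP-1 site TGANTCA, where N is any base.
Cxcl10, chr5:92348840-92349139, minus strand: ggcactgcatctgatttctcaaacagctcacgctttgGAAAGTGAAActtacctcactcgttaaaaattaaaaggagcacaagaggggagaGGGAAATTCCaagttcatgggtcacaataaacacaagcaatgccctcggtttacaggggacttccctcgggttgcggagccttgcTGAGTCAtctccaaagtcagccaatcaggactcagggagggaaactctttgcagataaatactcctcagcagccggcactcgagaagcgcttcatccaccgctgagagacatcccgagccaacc
Cxcl1, chr5:90890995-90891294, plus strand: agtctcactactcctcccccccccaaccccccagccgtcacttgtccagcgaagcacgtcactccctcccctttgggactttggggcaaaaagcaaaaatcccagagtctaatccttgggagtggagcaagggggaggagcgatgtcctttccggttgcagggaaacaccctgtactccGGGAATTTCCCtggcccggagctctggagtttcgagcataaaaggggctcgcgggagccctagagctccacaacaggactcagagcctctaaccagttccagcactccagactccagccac
Cxcl2, chr5:90903649-90903948, plus strand: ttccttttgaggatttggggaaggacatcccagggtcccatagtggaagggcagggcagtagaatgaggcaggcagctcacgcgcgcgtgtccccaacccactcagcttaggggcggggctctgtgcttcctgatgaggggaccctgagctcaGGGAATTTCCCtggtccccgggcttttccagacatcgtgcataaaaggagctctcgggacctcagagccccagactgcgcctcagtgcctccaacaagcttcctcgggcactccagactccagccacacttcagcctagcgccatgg
In Cxcl10 the interferon core began 213 bases before the start site, the kB match 159 bases before and the AP-1 match 74 bases before. The kB pattern was 1 fixed form of that site, so any other form stays in lower case and uncounted. Cxcl1 and Cxcl2 each held 2 overlapping kB matches in the same capital run, which began 71 and 97 bases before their starts. A kB match was present in 2.69% of the 260 windows of genes shared higher by at least 2-fold and in 1.47% of the 13165 windows of all tested genes. The AP-1 site was in 8.85% against 5.13%, and the interferon core in 3.46% against 3.06%. Windows were found for 193 of the 276 genes. Over all 32851 promoter windows, tested genes or not, the shares were 1.47%, 7.81% and 3.44%. A match describes the letters and does not show binding.

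NF-kB and inflammatory genes had 8 of 20 tested members shared higher (40%) and 0 shared lower, and 14 of 20 rose in both media at any size. Over all genes tested, 7.82% were shared higher and 7.64% shared lower, and 14.3% rose and 16.2% fell in both at any size. The 20 are those of 27 listed genes abundant enough in some group to test. Genes nearly absent from the controls, such as Cxcl1 and Cxcl2 among the 8, were tested only because they rose. The list's median log2 change was 1.35 in M1 and 0.57 in TAM. Relb, an NF-kB subunit of the non-canonical pathway, stood at 8.34 and 8.84 CPM in M0, 8.02, 9.17 and 11.4 in M2, 34.4, 32.2 and 35.1 in M1 and 42.5, 45.9 and 42.1 in TAM. Both groups lay above every control, as the choice of named genes required, and the log2 changes were 1.91 ± 0.08 and 2.27 ± 0.08. Zfp36, which encodes tristetraprolin, a protein that shortens the life of inflammatory mRNAs, rose from 4.49 to 5.58 CPM in the controls to 36.9, 36.1 and 42.2 in M1 and 26.7, 27.5 and 27.8 in TAM. Not every member of the list was shared. Ikbke, a kinase of the interferon and NF-kB pathways, rose by 0.65 ± 0.08 in M1 and fell by 0.88 ± 0.09 in TAM on the log2 scale. Nfkbiz, a nuclear inhibitor-of-kB protein, changed by 0.96 ± 0.09 and −0.42 ± 0.10, and Tnip1, which restrains NF-kB, by 0.56 ± 0.05 and −0.39 ± 0.05.

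Genes of the interleukin-6 family and the STAT3 response were shared in part. Of 19 tested members 4 were shared higher (21.1%) and 1 shared lower (5.26%), against 7.82% and 7.64% of all genes tested. List medians were 1.09 in M1 and 0.65 in TAM. Lif, a secreted cytokine of this family (chromosome 11, 4257557 to 4272514, plus strand), was 0.125 and 0.239 CPM in M0, 0.411, 0.399 and 0.165 in M2, 4.49, 2.44 and 4.38 in M1, and 19.6, 19.4 and 21.9 in TAM. TAM lay highest in all 3 libraries. The log2 changes were 3.90 ± 0.27 (adjusted p = 1.28e-17) and 6.31 ± 0.20 (adjusted p = 1.1e-31), and the media differed by 2.41 (adjusted p = 8.4e-20). Osmr, the receptor subunit for oncostatin M, went from 5.11 to 6.92 CPM in the controls to 21.4, 20.9 and 19.4 in M1 and 13.4, 13.4 and 13.6 in TAM. Bcl3, an atypical inhibitor-of-kB protein and STAT3 target, rose by 3.54 ± 0.14 in M1 and 1.93 ± 0.16 in TAM. Cntfr, the receptor for ciliary neurotrophic factor, was the shared lower member. It fell from 101 to 112 CPM to 44.2, 41.7 and 49.3 in M1 and 46.4, 48.8 and 44.6 in TAM, and the difference between the media was 0.05 with an approximate 95% interval of −0.07 to 0.16.

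Antigen presentation and interferon genes mostly rose in M1 alone or by unequal amounts. Of 38 interferon response genes tested, all 38 rose in M1, and 19 rose and 9 fell in TAM. Over all genes tested 27.5% rose in M1, and 35.9% rose and 36.2% fell in TAM. Shared higher by size was 1 of the 38 (2.63%), Cxcl10, against 7.82% of all genes tested. List medians were 6.25 in M1 and 0.48 in TAM. Of 25 antigen presentation genes, 1 was shared higher (4%) and 1 shared lower (4%), against 7.82% and 7.64% of all genes tested. At any size 13 rose in both, against 14.3% of all genes tested. Of the 25, 4 had 0 counts in the controls and could only rise. Cd74, the invariant chain of MHC class II, was the shared higher one. It was 0.00 and 0.143 CPM in M0, 0.257, 0.00 and 0.00 in M2, 72.0, 76.7 and 75.5 in M1 and 11.7, 12.7 and 12.1 in TAM. With so few control reads its fitted changes of 9.69 ± 0.16 and 7.07 ± 0.23 depend on the prior count of the fit, and M1 exceeded TAM (adjusted p = 3.67e-28). Isg20, an interferon-induced exonuclease that degrades RNA, was 0.449 to 0.940 CPM in the controls, 41.9, 43.8 and 38.3 in M1 and 8.63, 8.40 and 9.35 in TAM. The shared lower member was Calr, the endoplasmic reticulum chaperone calreticulin, at −0.34 ± 0.03 and −0.43 ± 0.03.

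**Figure D2:**
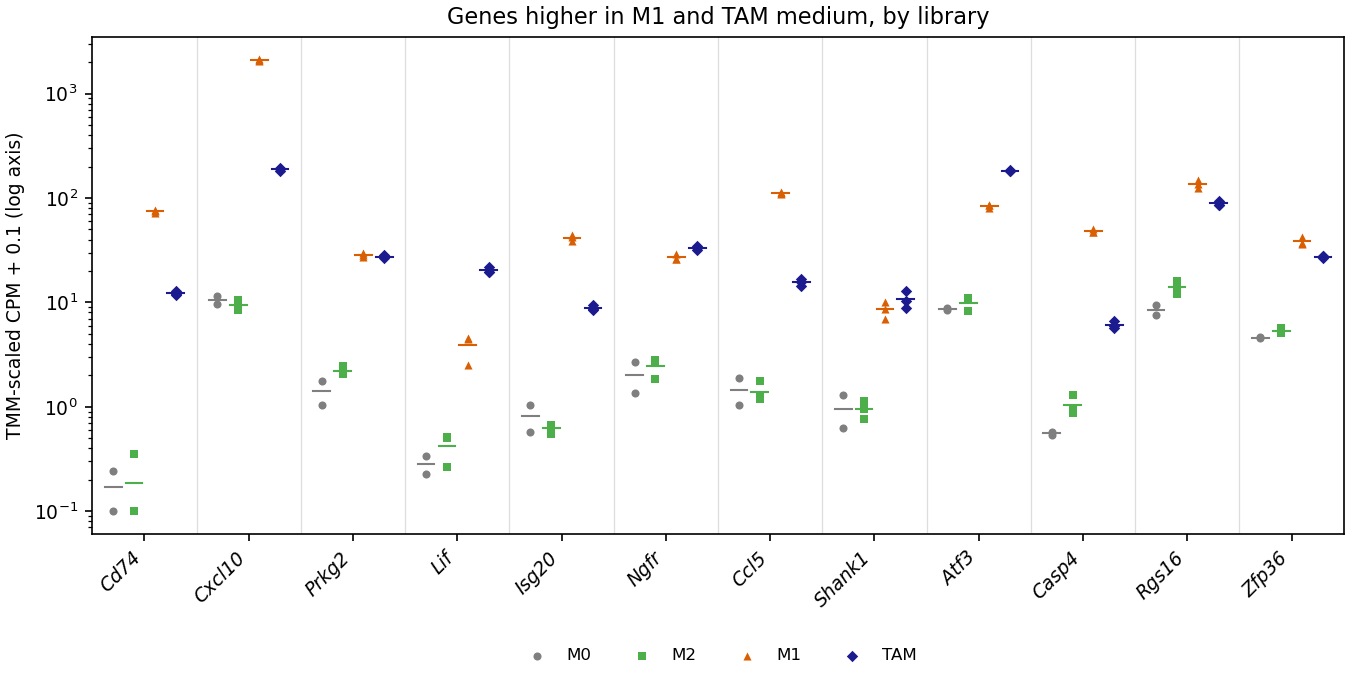
CPM after TMM scaling, plus 0.1 and on a log axis, of the 12 genes with the largest shared rise, with 1 point per library, horizontal bars for group means, and M0 (2 libraries), M2, M1 and TAM (3 each) side by side. All M1 and TAM points lie above all control points by the rule that chose the genes. Prkg2 and Shank1 reach similar levels in both media, Lif and Atf3 are higher in TAM, and Cd74, Cxcl10, Isg20, Ccl5 and Casp4 are higher in M1.

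Some of the large shared rises were close in size in both media. Prkg2, a kinase activated by cyclic GMP (chromosome 5, 98929773 to 99037351, minus strand), was 0.940 and 1.67 CPM in M0, 2.06, 1.95 and 2.36 in M2, 28.2, 27.0 and 29.3 in M1 and 27.5, 28.2 and 26.5 in TAM. M1 and TAM libraries interleaved. The log2 changes were 4.05 ± 0.11 and 4.01 ± 0.11, and the difference was −0.04 with an approximate 95% interval of −0.20 to 0.12. Shank1, a scaffold of synapses, rose by 3.34 ± 0.20 and 3.66 ± 0.19, a difference of 0.32 with an interval of 0.02 to 0.62 (adjusted p = 0.0605). Ngfr, the low-affinity nerve growth factor receptor that marks neural-crest-like melanoma cells, was 1.25 and 2.58 CPM in M0, 2.72, 2.59 and 1.76 in M2, 25.8, 26.1 and 28.8 in M1 and 31.6, 33.3 and 34.9 in TAM. TAM lay above M1 by a small margin (log2 difference 0.31, adjusted p = 0.00189). Rgs16, which switches off G proteins, rose from 7.52 to 15.8 CPM to 150, 124 and 136 in M1 and 86.2, 94.3 and 86.3 in TAM. Its rise was smaller in TAM (log2 difference −0.62, adjusted p = 1.7e-07).

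Dedifferentiation and mesenchymal genes were divided. Of 20 tested, 5 were shared higher (25.0%), 3 shared lower (15%) and 3 were higher in M1 and lower in TAM (15%). Over all genes tested these shares were 7.82%, 7.64% and 6.75%. Fn1, the matrix protein fibronectin (chromosome 1, 71585520 to 71653200, minus strand), was 93.0 and 97.3 CPM in M0, 121, 105 and 104 in M2, 630, 619 and 637 in M1 and 550, 596 and 565 in TAM. Axl, a receptor tyrosine kinase of invasive melanoma, went from 19.6 to 28.2 CPM to 89.0, 82.1 and 91.6 in M1 and 105, 109 and 105 in TAM. Tgfb1, a secreted suppressor of T cells, rose by 0.88 ± 0.08 and 1.52 ± 0.07. It was the shared higher member of 10 tested immune checkpoint and suppression genes (10%, near the 7.82% of all genes tested). Cdh1, the epithelial cadherin, was scarce everywhere and fell by 1.5 ± 0.45 and 2.97 ± 0.55 on the log2 scale, from 0.690 to 1.10 CPM. In opposite directions went Thbs1, a matrix glycoprotein, at 8.38 to 10.5 CPM in the controls, 100, 112 and 109 in M1 and 3.69, 5.37 and 4.40 in TAM. Vim, the intermediate filament vimentin, was 1444 to 1561 CPM in the controls, 2153, 2236 and 2215 in M1 and 570, 625 and 575 in TAM. The adhesion receptor gene Cd44 changed by 0.19 ± 0.03 and −0.29 ± 0.03.

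Immediate early and AP-1 genes had 7 of 23 tested members shared higher (30.4%) and 0 shared lower, against 7.82% and 7.64% of all genes tested. List medians were 0.58 in M1 and 1.75 in TAM. Atf3, a stress-induced transcription factor, stood at 8.28 and 8.75 CPM in M0, 10.8, 8.13 and 10.3 in M2, 84.7, 80.8 and 85.1 in M1 and 182, 186 and 180 in TAM. Its log2 changes were 3.20 ± 0.06 and 4.32 ± 0.05. Fosl2, which encodes the AP-1 subunit FRA2, went from 13.7 to 19.6 CPM to 69.5, 64.5 and 70.6 in M1 and 63.3, 58.8 and 57.7 in TAM. Csrnp1, a nuclear protein first known as induced by AXIN1, rose by 2.41 ± 0.07 and 1.75 ± 0.07. Members that went in opposite directions were all lower in M1 and higher in TAM. Myc, the growth-promoting transcription factor, was 64.8 to 71.7 CPM in the controls, 44.4, 50.5 and 51.4 in M1 and 189, 203 and 196 in TAM. Klf10, an early target of transforming growth factor beta, changed by −0.56 ± 0.09 and 1.23 ± 0.07, and Mafg, a small MAF protein that pairs with NRF2, by −0.26 ± 0.04 and 1.08 ± 0.04.

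Of 20 tested genes of ERK feedback and growth factor signalling 1 was shared higher (5%) and 0 shared lower. Over all genes tested these shares were 7.82% and 7.64%. Dusp6, a phosphatase that switches ERK off, was the shared higher member, rising from 39.0 to 44.7 CPM to 117, 106 and 119 in M1 and 118, 126 and 126 in TAM. Lower in M1 and higher in TAM were 4 members (20.0%), against 5.58% of all genes tested. Dusp4, another such phosphatase, was 115 to 129 CPM in the controls, 58.5, 61.3 and 62.4 in M1 and 154, 155 and 158 in TAM. Spry4, an inhibitor of receptor tyrosine kinase signalling, changed by −1.95 ± 0.41 and 2.02 ± 0.24, and the transcription factor gene Etv5 by −1.25 ± 0.26 and 1.52 ± 0.18.

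Cell death genes had 10 of 26 tested members shared higher (38.5%) and 1 shared lower (3.85%), against 7.82% and 7.64% of all genes tested. Casp4, which in mouse encodes the caspase that senses bacterial lipopolysaccharide in the cytosol, was 0.439 and 0.478 CPM in M0, 0.771, 0.848 and 1.21 in M2, 50.5, 47.6 and 47.4 in M1 and 5.56, 6.51 and 5.80 in TAM. Bid, which links death receptors to mitochondria, went from 22.3 to 26.3 CPM to 78.2, 80.4 and 80.5 in M1 and 54.1, 54.5 and 52.9 in TAM. Bbc3, which encodes the killer protein PUMA, rose by 0.95 ± 0.08 and 1.85 ± 0.07. Casp1, the inflammasome caspase, rose from at most 0.0997 CPM to 0.408 to 0.774 in M1 and 0.150 to 0.468 in TAM. The pore-forming effectors went in opposite directions. Bak1 was 65.4 to 68.8 CPM in the controls, 106.9, 114 and 114 in M1 and 37.2, 38.2 and 37.8 in TAM, whereas Bax was 50.9 to 59.5 in the controls, 39.3, 36.1 and 38.2 in M1 and 86.1, 95.8 and 83.1 in TAM. Casp8, the initiator caspase of death receptors, changed by 0.80 ± 0.04 and −0.54 ± 0.05.

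Among 22 genes of a list of p53 and its targets 2 were shared higher (9.09%) and 5 were lower in M1 and higher in TAM (22.7%). The medians were −0.04 in M1 and 1.83 in TAM. Over all genes tested these shares were 7.82% and 5.58%. The 2 shared higher members were the target Bbc3, given above, and the gene of p53 itself, Trp53. The latter rose by 0.34 ± 0.04 and 0.46 ± 0.04. Trp53inp1, a stress-induced partner of p53, was 49.3 to 60.6 CPM in the controls, 37.1, 43.3 and 35.5 in M1 and 227, 219 and 235 in TAM. Zmat3, an RNA-binding target, changed by −0.83 ± 0.06 and 0.99 ± 0.05, and Ccng1, cyclin G1, by −0.51 ± 0.04 and 1.05 ± 0.04.

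Endoplasmic reticulum stress genes that rose in both media mostly did so by unequal amounts. Of 35 tested genes for endoplasmic reticulum stress and the integrated stress response, 2 were shared higher (5.71%) while 16 rose in both at any size. Over all genes tested 7.82% were shared higher and 14.3% rose in both. The list's medians were 0.32 in M1 and 1.84 in TAM. Apart from Atf3, the shared member was Psat1, an enzyme of serine synthesis, at 0.21 ± 0.04 and 0.18 ± 0.04. Herpud1, a membrane component of endoplasmic reticulum quality control, was 93.5 to 101 CPM in the controls, 62.9, 56.2 and 57.4 in M1 and 297, 314 and 300 in TAM. Opposite to it were Eif2ak2, the double-stranded RNA kinase PKR, at 2.33 ± 0.04 and −0.45 ± 0.05, and Edem1, a lectin of misfolded glycoproteins, at 0.38 ± 0.03 and −0.51 ± 0.03. Of 27 oxidative stress genes 3 were shared higher (11.1%) and 2 shared lower (7.41%), near the 7.82% and 7.64% of all genes tested. Nfe2l2, the gene of NRF2, rose by 0.45 ± 0.04 in each medium, from 135 to 148 CPM to 196, 198 and 192 in M1 and 194, 188 and 204 in TAM. Its targets Nqo1, a quinone reductase, and G6pdx, the first enzyme of the pentose phosphate pathway, rose by 0.82 ± 0.16 and 1.45 ± 0.15 and by 0.90 ± 0.07 and 0.76 ± 0.07. Keap1, the inhibitor of NRF2, changed by 0.65 ± 0.05 and −0.52 ± 0.05, Txn1, thioredoxin, by 0.31 ± 0.03 and −0.46 ± 0.04, and Fth1, the heavy chain of ferritin, by −0.40 ± 0.07 and 0.32 ± 0.07. Mt1, a metallothionein that binds zinc, fell from 303 to 334 CPM to 114, 136 and 126 in M1 and 115, 109 and 108 in TAM.

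Most pigment cell genes fell in both media, and 4 went in opposite directions. Of 22 melanocyte genes tested, 9 were shared lower (40.9%) and 1 shared higher (4.55%), against 7.64% and 7.82% of all genes tested. At any size 15 fell in both, against 16.2% of all genes tested, and the medians were −0.67 in M1 and −1.16 in TAM. Tyr, which encodes tyrosinase, the enzyme that starts melanin synthesis (chromosome 7, 87424771 to 87493512, minus strand), was 630 and 612 CPM in M0, 616, 634 and 623 in M2, 245, 260 and 242 in M1 and 283, 286 and 283 in TAM. Treated and control libraries did not overlap, as the choice of named genes required. The log2 changes were −1.32 ± 0.03 (adjusted p = 6.79e-37) and −1.13 ± 0.03 (adjusted p = 2.92e-34). Slc45a2, a melanosomal transporter, fell from 617 to 637 CPM to 237, 247 and 256 in M1 and 228, 234 and 221 in TAM. Pmel, which forms the fibrils of melanosomes, was 4043 to 4689 CPM in the controls, 2457, 2470 and 2517 in M1 and 1501, 1655 and 1577 in TAM. Trpm1, a cation channel under MITF control, fell by 1.84 ± 0.08 and 0.95 ± 0.08, and Kit, the receptor for stem cell factor, by 2.49 ± 0.39 and 2.69 ± 0.40 from at most 1.81 CPM.

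Mitf, the master transcription factor of the lineage, fell in both media but not by similar size. It was 581 and 567 CPM in M0, 523, 586 and 542 in M2, 317, 425 and 341 in M1 and 108, 113 and 110 in TAM. The log2 changes were −0.64 ± 0.09 (adjusted p = 0.000618) and −2.35 ± 0.11 (adjusted p = 1.31e-07). With M0 replicate 1 put back the M1 change was −0.51 and was not called (adjusted p = 0.167). Pax3, an upstream factor of the lineage, went the opposite way in the media, at 188 to 203 CPM in the controls, 151, 160 and 150 in M1 and 373, 374 and 376 in TAM. Mc1r, the melanocortin receptor, changed by 0.17 ± 0.04 and −2.18 ± 0.05. Tfap2a, a neural crest factor, changed by 0.16 ± 0.05 and −0.49 ± 0.05, and its M1 change was not called with upper-quartile scaling (adjusted p = 0.0918).

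**Figure D3:**
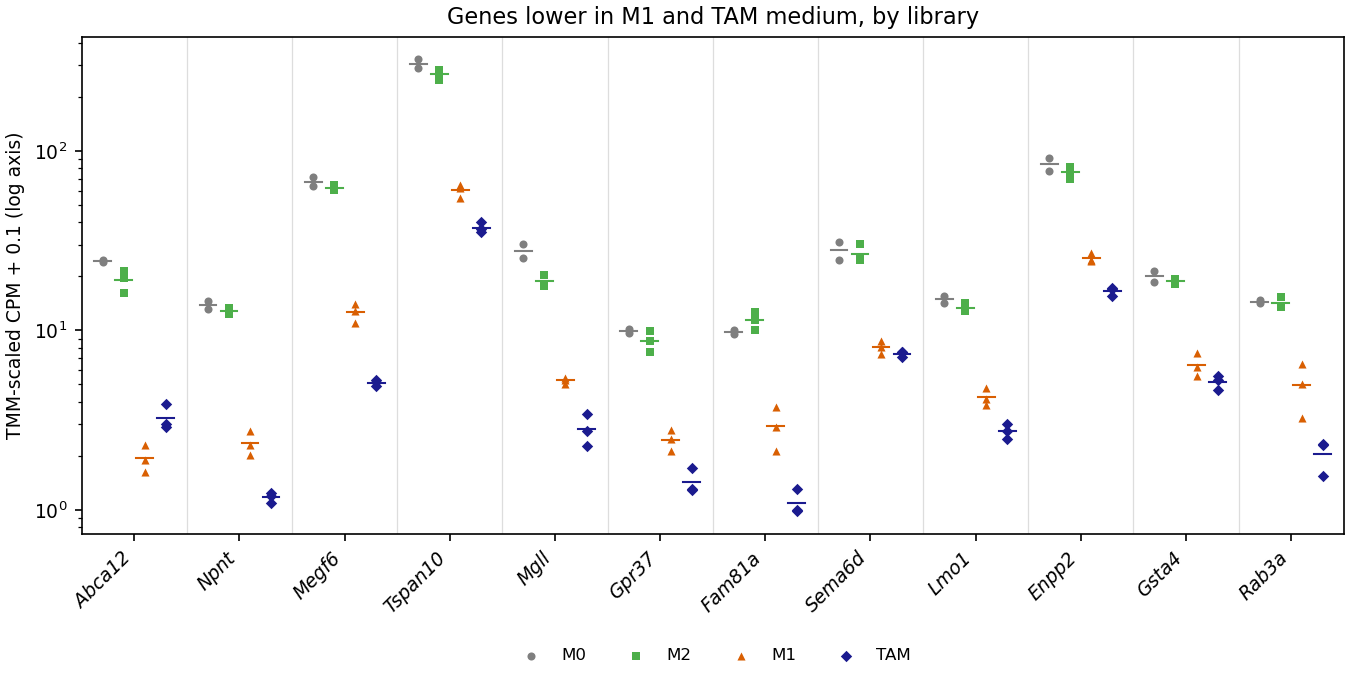
CPM after TMM scaling, plus 0.1 and on a log axis, of the 12 genes with the largest shared fall, with 1 point per library and horizontal bars for group means. All M1 and TAM points lie below all control points by the rule that chose the genes. The TAM mean lies below the M1 mean for all of these genes except Abca12.

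The largest shared falls included a transporter, a matrix ligand and signalling genes. Abca12, a lipid transporter best known in skin (chromosome 1, 71242276 to 71414910, minus strand), was 24.5 and 23.8 CPM in M0, 16.03, 21.2 and 19.5 in M2, 2.19, 1.79 and 1.53 in M1 and 2.91, 2.78 and 3.80 in TAM. Its log2 changes were −3.54 ± 0.14 and −2.75 ± 0.12. Tspan10, a tetraspanin of pigment cells (chromosome 11, 120442644 to 120446950, plus strand), went from 247 to 323 CPM to 54.9, 62.2 and 64.6 in M1 and 36.6, 39.9 and 35.2 in TAM. Npnt, a matrix ligand of integrins, fell by 2.54 ± 0.14 and 3.61 ± 0.16, and Megf6, a protein with repeats like those of epidermal growth factor, by 2.36 ± 0.07 and 3.68 ± 0.08. Enpp2, which encodes autotaxin, the enzyme that makes lysophosphatidic acid, fell from 69.8 to 91.2 CPM to 26.7, 24.5 and 24.2 in M1 and 16.9, 15.4 and 17.1 in TAM. Mgll, which breaks down monoacylglycerol, was 17.7 to 30.2 CPM in the controls, 5.19, 4.94 and 5.35 in M1 and 2.18, 3.33 and 2.65 in TAM. Its control groups differed, with means of 27.7 CPM in M0 and 18.7 in M2 (adjusted p = 0.00365). Sema6d, an axon guidance molecule, fell by 1.77 ± 0.10 and 1.89 ± 0.10, a difference of −0.12 with an interval of −0.36 to 0.12. The remaining genes of this set were Gpr37, Fam81a, Lmo1, Gsta4 and Rab3a, with log2 changes from −1.95 to −1.55 in M1 and from −3.39 to −1.94 in TAM.

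Start regions of Tyr and Tspan10 are shown because both genes fell in both media and both hold the M-box core CATGTG, which MITF is known to bind, at the same distance. Capitals mark the match on either strand.
Tyr, chr7:87493463-87493762, minus strand: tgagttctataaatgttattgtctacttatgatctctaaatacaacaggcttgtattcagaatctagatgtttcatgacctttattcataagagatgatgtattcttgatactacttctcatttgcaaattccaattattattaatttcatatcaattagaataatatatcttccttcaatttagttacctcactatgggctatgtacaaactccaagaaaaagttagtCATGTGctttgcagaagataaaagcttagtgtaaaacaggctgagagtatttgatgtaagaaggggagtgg
Tspan10, chr11:120442381-120442680, plus strand: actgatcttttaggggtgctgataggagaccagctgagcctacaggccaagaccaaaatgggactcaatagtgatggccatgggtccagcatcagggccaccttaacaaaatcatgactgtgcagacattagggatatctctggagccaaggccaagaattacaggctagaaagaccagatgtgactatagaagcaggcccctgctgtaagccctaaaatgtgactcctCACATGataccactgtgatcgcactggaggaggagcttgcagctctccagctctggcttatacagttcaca
In each the match began 21 bases before the start site, on the gene's strand in Tyr and on the other strand in Tspan10. The core was in 13.9% of 151 windows of genes shared lower by at least 2-fold, 9.62% of windows of shared higher genes, 8.77% of windows of all tested genes and 14.2% of all promoter windows. Windows were found for 106 of the 165 genes.

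Most DNA replication and mitosis genes fell in both media, with medians further down in TAM. Of 36 DNA replication genes 29 fell in both at any size, against 16.2% of all genes tested, and 3 were shared lower (8.33%), with medians of −0.28 in M1 and −1.22 in TAM. Of 36 mitosis genes 31 fell in both and 3 were shared lower (8.33%), with medians of −0.28 and −1.25. In both lists the share of shared lower genes was near the 7.64% of all genes tested. Mcm2, a subunit of the replicative helicase, was 797 to 842 CPM in the controls, 505, 547 and 535 in M1 and 342, 363 and 358 in TAM. Ccnb1, cyclin B1, fell by 0.47 ± 0.04 and 0.87 ± 0.04, and Ube2c, the ubiquitin-conjugating enzyme of the anaphase-promoting complex, by 0.46 ± 0.04 and 0.68 ± 0.04. Dbf4, the activator of the replication kinase CDC7, fell by 0.31 ± 0.05 and 0.21 ± 0.05 on the log2 scale.

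Of the 3 members of these lists that went in opposite directions, Rfc3 and Pttg1 rose in M1 and fell in TAM. Ndc80, a kinetochore subunit named after its values were seen, went the other way by −0.11 ± 0.05 (adjusted p = 0.0412) and 0.16 ± 0.05 (adjusted p = 0.00185), and its M1 libraries overlapped the controls. Rfc3, a subunit of the sliding-clamp loader, was 56.2 to 61.7 CPM in the controls, 72.5, 77.6 and 74.0 in M1 and 21.7, 19.7 and 19.5 in TAM. Pttg1, securin, changed by 0.56 ± 0.07 and −0.36 ± 0.08. Of 23 genes of G1 control 3 were shared lower (13.0%) and 1 shared higher (4.35%), against 7.64% and 7.82% of all genes tested. Skp2, a subunit of the ligase that degrades p27, fell by 0.64 ± 0.05 and 1.16 ± 0.05, while Rb1, the retinoblastoma gene, rose by 0.44 ± 0.07 and 0.49 ± 0.06. Cdkn2c, an inhibitor of CDK4 and CDK6, was 78.8 to 85.9 CPM in the controls, 100, 115 and 107.1 in M1 and 22.5, 24.1 and 21.9 in TAM, and cyclin D3 (Ccnd3) changed by 0.35 ± 0.04 and −1.06 ± 0.04.

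Nucleotide synthesis genes had 8 of 25 tested members shared lower (32.0%) and 0 shared higher, against 7.64% and 7.82% of all genes tested. Shmt1, which feeds folate for thymidylate, was 52.4 to 58.5 CPM in the controls, 32.9, 34.5 and 33.6 in M1 and 33.2, 35.1 and 35.4 in TAM. Cad, the first enzyme of pyrimidine synthesis, fell by 0.55 ± 0.04 and 0.91 ± 0.04, and Atic, the last of purine ring synthesis, by 0.22 ± 0.04 and 0.21 ± 0.04. In opposite directions went Gart, at 0.22 ± 0.04 and −0.50 ± 0.04, and Adsl, at 0.11 ± 0.04 and −0.31 ± 0.04, both enzymes of purine synthesis. The M1 change of Adsl was not called with upper-quartile scaling (adjusted p = 0.268). Of 28 genes of DNA repair and the damage checkpoint 4 were shared lower (14.3%) and 1 shared higher (3.57%). Over all genes tested these shares were 7.64% and 7.82%. Parp1, a sensor of strand breaks, was 326 to 357 CPM in the controls, 220, 229 and 228 in M1 and 174, 178 and 179 in TAM. The shared higher gene was the checkpoint kinase gene Atr, at 0.39 ± 0.05 and 0.67 ± 0.05. Its relative Atm was 106 to 119 CPM in the controls, 243, 274 and 255 in M1 and 62.9, 64.9 and 73.4 in TAM.

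Genes of glycolysis and hypoxia had 10 of 35 tested members shared lower (28.6%), against 7.64% of all genes tested. At any size 23 fell in both, against 16.2% of all genes tested, with medians of −0.31 in M1 and −0.99 in TAM. Slc16a3, a lactate exporter, was 159 and 117 CPM in M0, 114, 154 and 126 in M2, 54.6, 72.0 and 58.0 in M1 and 35.3, 31.3 and 32.8 in TAM. The hormone gene Adm and the oxygen sensor gene Egln3, both induced by hypoxia, fell by 1.74 ± 0.21 and 2.36 ± 0.22 and by 1.26 ± 0.21 and 2.24 ± 0.24. Not all glycolytic genes fell together. Pfkp, a phosphofructokinase, was 197 to 220 CPM in the controls, 265, 256 and 265 in M1 and 92.6, 99.2 and 99.3 in TAM, and Pfkfb3, which makes an activator of that step, changed by −0.24 ± 0.06 and 1.29 ± 0.05. Ndrg1, a growth and stress gene, was 29.8 to 40.4 CPM in the controls, 24.9, 23.6 and 24.9 in M1 and 79.3, 86.4 and 79.8 in TAM. Of 33 nuclear genes of oxidative phosphorylation 6 were shared lower (18.2%, against 7.64% of all genes tested) by small amounts. Examples are Ndufb10, a subunit of complex I, at −0.41 ± 0.05 and −0.51 ± 0.05, and Atp5b, a catalytic subunit of ATP synthase, at −0.11 ± 0.03 and −0.19 ± 0.03. Of 29 lysosome and autophagy genes 3 were shared higher (10.3%) and 3 shared lower (10.3%), near the 7.82% and 7.64% of all genes tested. Lamp2, a lysosomal membrane protein, rose by 0.41 ± 0.03 and 0.54 ± 0.03, while Lamp1 changed by −0.40 ± 0.05 and 0.29 ± 0.04.

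**Figure D4:**
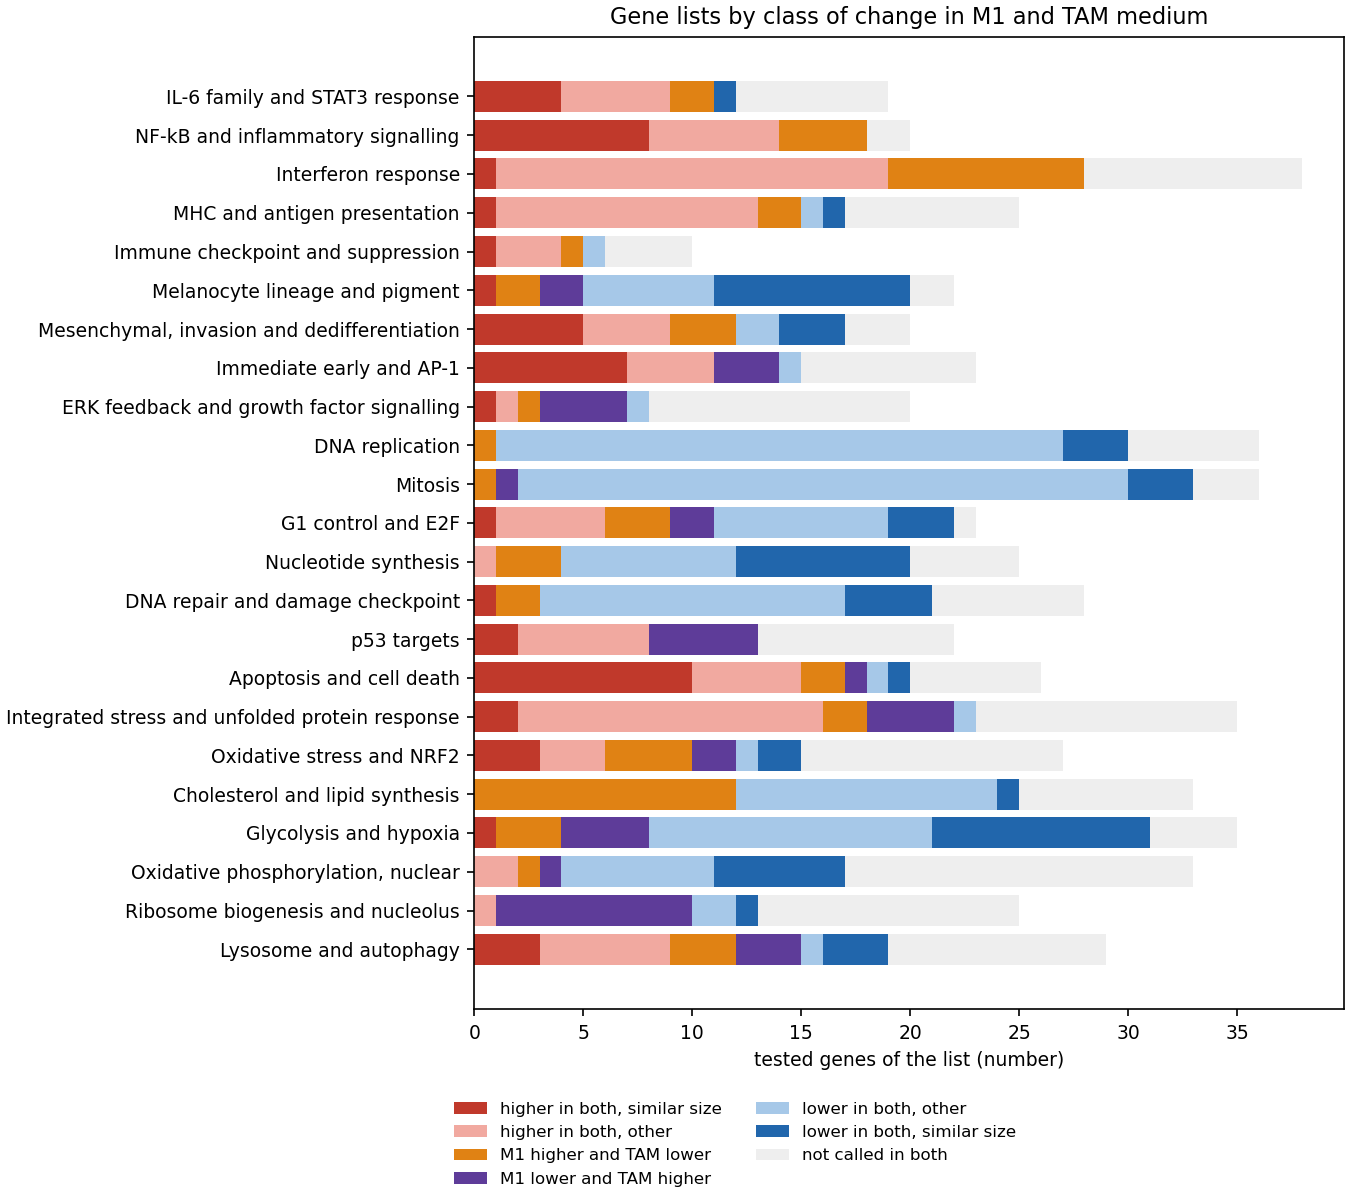
Number of tested genes in each list with at least 10 tested genes, divided by class of change in M1 and TAM against the controls. Similar-size genes (dark red and dark blue) are 8 of 20 in the NF-kB list, 9 shared lower of 22 in the melanocyte list, and 3 of 36 in each of the DNA replication and mitosis lists, where the pale blue share with unequal size is larger. Over all genes tested, 7.82% were shared higher and 7.64% shared lower.

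Genes that rose in M1 and fell in TAM included antiviral and pathogen-sensing genes. Nod1, a cytosolic sensor of bacterial peptidoglycan (chromosome 6, 54923949 to 54972612, minus strand), was 3.57 and 2.25 CPM in M0, 3.08, 3.49 and 3.24 in M2, 137, 124 and 139 in M1 and 0.312, 0.249 and 0.300 in TAM. M1 lay above and TAM below every control library, as the choice of named genes required. The log2 changes were 5.45 ± 0.08 (adjusted p = 2.02e-49) and −3.38 ± 0.26 (adjusted p = 4.9e-17). Cmpk2, an interferon-induced mitochondrial nucleotide kinase, was 12.3 to 15.1 CPM in the controls, 222, 307 and 253 in M1 and 2.29, 2.64 and 3.00 in TAM. Lgals9, which encodes galectin-9, a ligand of the T-cell receptor TIM-3, was 15 to 17.9 CPM in the controls, 169, 178 and 174 in M1 and 5.10, 5.37 and 4.60 in TAM. Mov10, an RNA helicase that restricts retroviruses, changed by 2.71 ± 0.04 and −1.70 ± 0.06, and Slfn9, a member of the Schlafen family, by 2.02 ± 0.05 and −1.88 ± 0.07.

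Of the 38 interferon response genes 9 (23.7%) were in this class, against 6.75% of all genes tested. Trim21, an antibody receptor and ubiquitin ligase of the cytosol, was 4.74 to 6.01 CPM in the controls, 96.7, 110 and 103 in M1 and 3.07, 2.73 and 2.10 in TAM. Dtx3l, a ubiquitin ligase of interferon and DNA damage responses, changed by 5.18 ± 0.06 and −0.99 ± 0.12. Mx1, an antiviral GTPase, changed by 5.95 ± 0.11 and −0.90 ± 0.26, and its fall in TAM was not called by limma-voom (adjusted p = 0.154). Psmb10, a catalytic subunit of the immunoproteasome from the antigen presentation list, was 9.57 to 12.2 CPM in the controls, 399, 419 and 434 in M1 and 5.51, 5.12 and 5.20 in TAM.

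Start regions of Lgals9 and Trim21 are shown because these genes rose in M1 and fell in TAM and each holds the interferon element core more than once. Capitals mark the interferon element core on either strand.
Lgals9, chr11:78984875-78985174, minus strand: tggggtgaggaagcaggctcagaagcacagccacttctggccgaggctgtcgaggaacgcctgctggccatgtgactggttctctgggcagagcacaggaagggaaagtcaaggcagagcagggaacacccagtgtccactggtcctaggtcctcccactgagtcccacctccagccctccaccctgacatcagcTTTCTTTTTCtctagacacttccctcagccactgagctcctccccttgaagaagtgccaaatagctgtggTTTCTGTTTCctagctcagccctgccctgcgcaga
Trim21, chr7:102565433-102565732, minus strand: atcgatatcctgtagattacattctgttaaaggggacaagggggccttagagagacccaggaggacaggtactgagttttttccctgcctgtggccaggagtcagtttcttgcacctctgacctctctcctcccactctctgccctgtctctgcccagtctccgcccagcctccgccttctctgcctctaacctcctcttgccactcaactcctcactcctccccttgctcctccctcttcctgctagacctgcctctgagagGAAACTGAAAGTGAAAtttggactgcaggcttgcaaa
In Lgals9 the matches began 55 bases before the start site and at base 16 from it, and in Trim21 2 overlapping matches began at bases 14 and 20. The core was in 14.3% of 49 windows of genes at least 2-fold higher in M1 and 2-fold lower in TAM, which is 7 windows, and in 3.06% of windows of all tested genes. In the 24 windows of genes lower in M1 and higher in TAM it was in 8.33%, which is 2 windows. Windows were found for 41 of the 65 genes and for 20 of the 26.

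Other genes in the class higher in M1 and lower in TAM had differing functions. Tubb3, a tubulin typical of neurons (chromosome 8, 123411424 to 123422015, plus strand), was 201 and 228 CPM in M0, 252, 226 and 236 in M2, 869, 862 and 907 in M1 and 34.8, 38.1 and 33.8 in TAM. Gas7, a protein of growth-arrested cells that binds actin, was 88.6 to 110 CPM in the controls, 354, 381 and 372 in M1 and 7.80, 11.9 and 9.85 in TAM. Plekha2, which binds membrane phosphoinositides, changed by 1.86 ± 0.08 and −1.62 ± 0.11. Gfap, an intermediate filament and STAT3 target, changed by 1.32 ± 0.10 and −0.67 ± 0.12, and Timp1, an inhibitor of metalloproteinases, by 0.43 ± 0.11 and −0.84 ± 0.12. For Gfap the control groups differed, with 6.21 and 6.88 CPM in M0 and 10.4 to 10.9 in M2, and its fall in TAM was not called against M0 alone (adjusted p = 0.053).

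Of the 26 lists, cholesterol and lipid synthesis had the largest share of members in this class. Of 33 tested 12 were higher in M1 and lower in TAM (36.4%), against 6.75% of all genes tested. At any size 13 fell in both media, against 16.2% of all genes tested, and 1 of these was shared lower (3.03%, against 7.64%). In M1, 12 members were thus called higher and 13 lower. All 33 fell in TAM, against 36.2% of all genes tested, with medians of 0.01 in M1 and −1.92 in TAM. Hsd17b7, an enzyme of the late pathway, was 29.3 to 34.1 CPM in the controls, 55.9, 63.6 and 58.0 in M1 and 11.3, 10.5 and 12.4 in TAM. Ebp, a sterol isomerase, changed by 0.57 ± 0.05 and −1.52 ± 0.06, and the sterol reductase gene Tm7sf2 by 0.55 ± 0.13 and −2.11 ± 0.17.

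**Figure D5:**
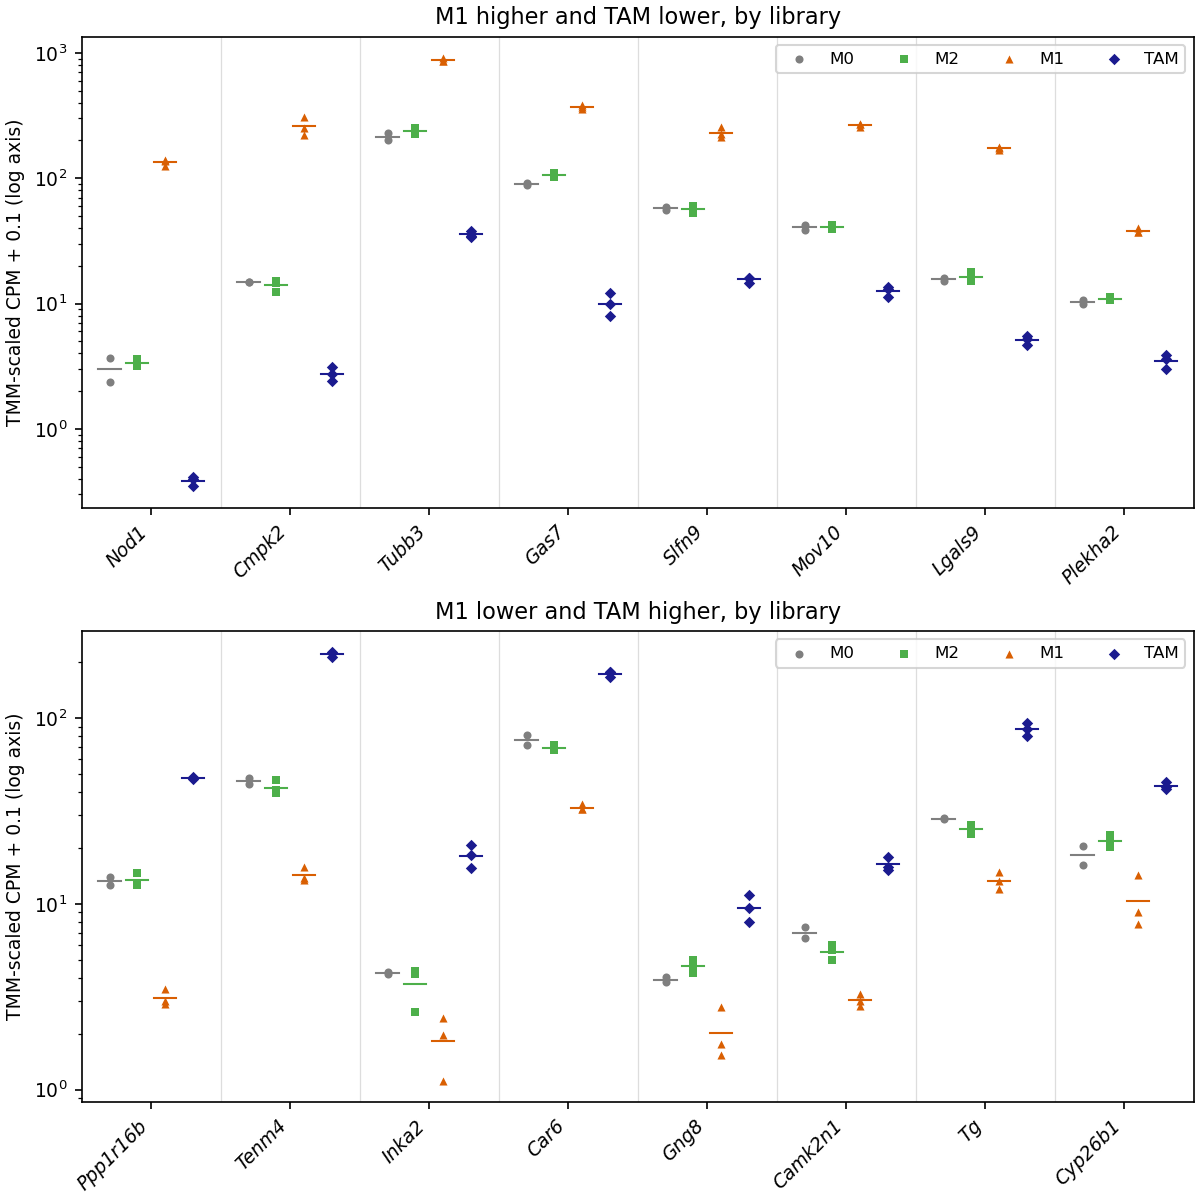
CPM after TMM scaling, plus 0.1 and on a log axis, of the 8 genes each with the largest opposite changes, with 1 point per library and horizontal bars for group means. In the upper panel M1 lies above and TAM below the controls, and in the lower panel the order is reversed. The lack of overlap in either follows from the rule that chose the genes.

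Genes that fell in M1 and rose in TAM by at least 2-fold in each were 26 (0.174%), against 65 (0.434%) in the other opposite class. Ppp1r16b, a regulatory subunit of protein phosphatase 1 (chromosome 2, 158665398 to 158766334, plus strand), was 12.6 and 13.8 CPM in M0, 14.5, 12.8 and 12.5 in M2, 3.37, 2.92 and 2.80 in M1 and 46.7, 48.3 and 47.3 in TAM. M1 lay below and TAM above every control library, as the choice of named genes required. The log2 changes were −2.13 ± 0.11 (adjusted p = 6.89e-23) and 1.84 ± 0.07 (adjusted p = 1.44e-29). Tenm4, a teneurin of neuronal wiring, was 39.4 to 47.2 CPM in the controls, 15.7, 13.3 and 13.7 in M1 and 213, 225 and 224 in TAM. Tg, the thyroid hormone precursor thyroglobulin, was 23.7 to 28.8 CPM in the controls, 14.7, 11.9 and 13.2 in M1 and 79.6, 93.4 and 87.0 in TAM. Car6, a secreted carbonic anhydrase, changed by −1.15 ± 0.05 and 1.25 ± 0.04, and Camk2n1, an inhibitor of calmodulin kinase II, by −1.06 ± 0.14 and 1.40 ± 0.11. Cyp26b1, which breaks down retinoic acid, was 16.2 to 23.3 CPM in the controls, 7.70, 14.2 and 8.97 in M1 and 42.5, 45.2 and 41.6 in TAM. Inka2, an inhibitor of the kinase PAK4, and Gng8, a G protein gamma subunit, changed by −1.17 ± 0.22 and 2.22 ± 0.14 and by −1.09 ± 0.19 and 1.19 ± 0.14.

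Genes of ribosome biogenesis and the nucleolus had 9 of 25 tested members in this class (36%), against 5.58% of all genes tested. Of the 25, 1 was shared lower (4%) and 0 shared higher, against 7.64% and 7.82% of all genes tested. List medians were −0.08 in M1 and 0.33 in TAM. Npm1, nucleophosmin, was 1003 to 1142 CPM in the controls, 857, 879 and 813 in M1 and 1354, 1373 and 1452 in TAM. Ncl, nucleolin, changed by −0.25 ± 0.03 and 0.63 ± 0.03, and Gnl3, nucleostemin, by −0.31 ± 0.04 and 0.80 ± 0.04. Nolc1, a chaperone of small nucleolar particles, was the shared lower member at −0.35 ± 0.04 and −0.29 ± 0.03.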

How the data were processed

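RNA of 12 libraries was measured, and the authors deposited 1 table of whole-number read counts for 55487 Ensembl genes, with no normalization. The submitters' processing notes name HISAT2 2.0 and mm10. No source used here gives the counting program, its annotation or its strand setting, so antisense neighbours and close paralogues (H2, Cxcl1 and Cxcl2, Trim, Slfn) are uncertain. Symbols or positions were found for 55141 identifiers with GENCODE M21 (GRCm38, the assembly mm10), and coordinates are 1-based. Promoter windows are from RefSeq on GRCm38.p6, and those on chromosome 18 were left out of all motif shares.

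Counts were fitted in R 4.3.3 with edgeR 4.0.16 (filterByExpr, TMM, robust quasi-likelihood, 1 mean per group) over 11 libraries, with Benjamini-Hochberg adjustment over 14968 genes. The filter keeps a gene that is abundant in a single group. A gene nearly absent from the controls was therefore tested only if it rose in M1 or TAM. Where a sentence names no other tool, its adjusted p is edgeR's. SE is the absolute log2 change divided by the square root of F, and approximate 95% intervals are from that SE. CPM values carry TMM scaling except in marker sums, in the group values of Ctss, Nos2, Mertk, Lyz2 and Coro1a, and in M0 replicate 1. Library totals of 15916756 to 20863973 counts set the precision, and the floor of 3 counts covers counting error only, since the labels name no molecular identifiers and PCR copies may be counted. The steps were tested on simulated data.

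Members, 26 gene lists and all rules were chosen with earlier results of these data known. Named genes reached a mean of 5 CPM, had an official symbol, and had M1 and TAM libraries that did not overlap the controls. They were the 12 per shared class and 8 per opposite class with the largest smaller change, plus up to 4 shared and 3 opposite genes per list with no minimum CPM, and 7 identity checks. Of these the text gives a selection. M1 and TAM were both past the control range in 5569 (37.2%) of all genes tested. For genes named by the rule a lack of overlap follows from the choice. Alternatives were other scalings and filters, DESeq2 1.42.0, limma 3.58.1 (voom), each control group alone, separate controls, other size rules, a replicate block, all 12 libraries, and each library left out. The values of 1 gene of the cholesterol and lipid synthesis list are not reported here.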

Additional observations from a re-analysis of the deposited data

Results flagged for a closer look

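M0 replicate 1, which the comparisons do not use, had 7.11% of its counts in ribosomal protein genes, outside the range of 3.21% to 3.75% of the other 11 libraries. It was flagged as a signal in a library outside the main measurement, and its cause was not tested.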

How the results depend on the processing

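Of 320 changes of single genes, recomputed under 24 other settings, 7556 values kept their direction and side of the threshold, 86 lost the call, 2 reversed and 36 had no value because the gene was not tested there. With all 12 libraries 50 calls were lost, among them the M1 changes of Atm, Atp5b, Atr, Bak1, Ccnd3, Ccng1, Cd44, Ebp, Fth1, Gart, Klf10, Mc1r, Mitf, Ndufb10, Pax3, Pdgfra, Pfkfb3, Psat1, Pttg1, Rb1, Rfc3, Skp2, Tfap2a, Timp1, Tm7sf2, Trp53, Trp53inp1 and Txn1 and the TAM changes of Atm, Atp5b, Bax, Cd44, Dbf4, Eif2ak2, Fth1, Lamp1, Nfkbiz, Psat1 and Thbs1, and the M1 changes of Adsl and S100a1 became −0.056 (adjusted p = 0.817) and −0.054 (adjusted p = 0.896). All 12 libraries also gave 3117 genes higher in the averaged contrast, 1867 higher and 1730 lower in M1, 2886 higher and 3393 lower in TAM against M1, 0 and 0 in M2 against M0, 543 and 705 shared, and 313 and 194 opposite genes. That library raised the common dispersion from 0.00166 to 0.0324. Upper-quartile scaling gave 1263 genes lower in M1 and higher in TAM. Without a filter M2 against M0 had 39 lower genes, and at an adjusted p of 0.01 it had 17 higher and 9 lower. Requiring that TAM and M1 not differ left 639 shared higher and 671 shared lower genes. A minimum of 1.5-fold left 492 and 367 shared and 197 and 66 opposite genes, and 2-fold left 276, 165, 65 and 26. For the settings without a named value here the cause was not tested. DESeq2 gave 1066 and 1148 shared and 825 and 835 opposite genes, and limma 1160, 1157, 1018 and 813.

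Leaving out each library in turn gave 4753 to 5010 higher and 4572 to 4779 lower genes in the averaged contrast, 3701 to 4097 and 3434 to 3859 in M1, 5096 to 5391 and 5102 to 5428 in TAM, and 4571 to 4934 and 5344 to 5739 in TAM against M1. Shared genes ranged from 1103 to 1170 higher and 1073 to 1154 lower, and opposite genes from 884 to 973 and 692 to 814. M2 against M0 ranged from 5 to 36 higher and 4 to 24 lower. It had 5 and 4 without M0 replicate 2, 17 higher without M0 replicate 3, and 4 lower without M2 replicate 1. A lone remaining M0 library was assumed to vary like the other groups.

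Libraries with the same replicate number did not deviate together (r from −0.075 to 0.028 over 15 pairs, and −0.033 to 0.056 for other numbers). Deviations from means of 2 or 3 libraries are tied to each other within a group. These values therefore cannot tell whether a number marks a shared culture. With the replicate number as a block, 1154 and 1117 genes were shared and 982 and 805 opposite. Genes below about 1 CPM, such as Casp1, Kit and Cdh1, carry SE of 0.39 or more, and small differences there were not detectable at this depth.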

Other observations

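The genes that followed next in size widened the same picture. Shared higher were Tnfrsf12a, the receptor for the cytokine TWEAK, at 40.6 ± 5.16 CPM (SD, n = 5) in the controls, 142 ± 10.01 (n = 3) in M1 and 378 ± 17.7 (n = 3) in TAM, and Lgals3, galectin-3, at 79.4 ± 7.78, 248 ± 9.56 and 432 ± 19.2 CPM. Txnip, an inhibitor of thioredoxin and of glucose uptake, rose by 1.77 ± 0.14 in M1 and 3.18 ± 0.13 in TAM on the log2 scale. Arid5a, which stabilises inflammatory mRNAs, rose by 2.19 ± 0.06 and 2.51 ± 0.06, so that it and Zfp36, which acts on such mRNAs in the opposite way, both rose. Bcl6, a transcriptional repressor, rose by 2.27 ± 0.10 and 1.91 ± 0.10. Apobec1, a cytidine deaminase that edits RNA, rose from 2.29 ± 0.563 to 19.6 ± 1.86 and 9.38 ± 0.870 CPM.

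Shared lower was Mgat5, which encodes a branching enzyme of glycans. It went from 466 ± 36.8 CPM in the controls to 190 ± 5.99 in M1 and 125 ± 5.85 in TAM, and the sialyltransferase gene St6gal1, also shared lower, from 49.8 ± 4.25 to 21 ± 1.54 and 21.7 ± 2.75. Bhlhe40, a repressor induced by hypoxia, changed by −1.35 ± 0.15 and −2.17 ± 0.17, and Mknk2, a kinase of the translation factor eIF4E, by −1.40 ± 0.05 and −2.59 ± 0.06. In opposite directions went Pycard, the inflammasome adaptor, at 5.02 ± 0.758 CPM in the controls, 11.9 ± 0.101 in M1 and 0.828 ± 0.139 in TAM. Dkk3, a secreted protein of the Dickkopf family, changed by 1.28 ± 0.05 and −3.02 ± 0.07, and Irs2, an adaptor of the insulin receptor, by −0.86 ± 0.10 and 2.20 ± 0.07. These genes were picked from the next ranks after their values were seen.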
